A study of Camponotus floridanus with 15 samples.

Results

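Whole bodies of the Florida carpenter ant *Camponotus floridanus* were compared between the stages in which a body is built, embryo and early pupa, and the stages in which it mostly feeds and grows, instar 1 larva and instar 4 larva. The comparison used 8 of the 15 libraries of the study: 2 of embryo and 2 of early pupa (4 libraries, called the body-building stages here) against 2 of instar 1 larva and 2 of instar 4 larva (4 libraries). Membership followed the stage labels alone, and all 18979 listed genes entered. All animals were kept at 25 °C and 50% humidity, with no treatment and no genetic change named. The labels give no age in days, caste or sex for these 4 stages and do not say how many animals made a library. The other 7 libraries, of late pupa minor and late pupa major (2 each), minor (2) and male (1), entered the statistical fit, and the late pupae and minors were also read for the genes found here. A minor is a small worker of this species and a major a large one. Nothing in the labels says whether replicates came from separate animals or colonies, so the p-values reflect how far these samples spread, a spread that may be technical.

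An ant passes through complete metamorphosis. The embryo lays down the larval body inside the egg, the legless larva is fed by workers and grows through successive moults, and the pupa neither feeds nor walks while larval tissue is broken down and the adult body forms. Moulting hormone pulses mark the passage from one instar to the next and into the pupa, and many genes of the insect cuticle, of digestion and of storage are known to be used in some of these phases and silent in others. The deposited table gives genes by identifier only, with no names, and none of its IDs (0) could be matched to the 14020 genes that RefSeq lists for the species. Genes are therefore reported by ID with no function, and no stage or tissue marker could be checked. In whole bodies, fewer cells of a type and less RNA per cell cannot be told apart.

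The values are RPKM, read numbers divided by the length of the gene and by a total for the library, so they compare genes per length. The steps of low values gave divisors of 16740000 to 30480000 reads for the 8 libraries. Reads on genes with a recovered length were fewer, 4532000 to 7874000. They made up from 14.9% of the divisor in instar 4 larva replicate 1 to 34.0% in embryo replicate 1. With these divisors, 3 reads on a gene of 1000 nt correspond to between 0.098 and 0.179 RPKM. This floor covers counting error only. Gene number and scale moved with stage: 9883 and 9419 genes reached 1 RPKM in embryo, 8823 and 8402 in early pupa, 9727 and 9582 in instar 1 larva, and 6921 and 8026 in instar 4 larva. The 50 most abundant genes made up 20.3% and 23.9% of summed RPKM in embryo, 57.4% and 53.4% in early pupa, 32.6% and 37.3% in instar 1 larva, and 50.6% and 43.0% in instar 4 larva. Each count is therefore given also on a median-ratio scale. On it each library's values were divided by 1 factor, the median of their ratios to the geometric mean of 9990 genes. The factors ran from 0.498 in instar 4 larva replicate 1 to 2.332 in embryo replicate 1. With this scaling embryo lay nearest to instar 1 larva and not to early pupa. Across 10619 genes, the mean correlation of log2 levels was 0.925 between embryo and instar 1 larva, 0.897 between the larval instars, 0.804 between early pupa and instar 4 larva, and 0.803 between embryo and early pupa. Genes are not independent replicates, so these are descriptions. Replicate 1 of instar 1 larva lay close to embryo, with correlations of 0.945 and 0.961 to the embryo libraries, against 0.888 and 0.906 for replicate 2 and 0.971 between the replicates themselves.

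Averaged over stages, 704 genes were higher and 481 were lower in embryo and early pupa than in larvae, of 10807 tested (6.51% and 4.45%; limma with Benjamini-Hochberg adjustment, adjusted p under 0.05). The contrast is the mean of the embryo and early pupa terms minus the mean of the larval terms, on log2(RPKM + 1), a scale that understates the change of low genes. The genes that fell did so by more: the median difference was 1.2 log2 units among those higher and -1.56 among those lower, against 0.21 over all genes tested. At least 4 log2 units separated the stages in 12 higher and 34 lower genes, and at least 2 in 73 and 161. The 4 body-building libraries all lay above the 4 larval libraries for 320 of the tested genes (2.96%) and all below for 245 (2.27%). Of the 704 higher genes 216 (30.7%) had no overlap between the libraries, and of the 481 lower genes 224 (46.6%). Rescaled by median ratios, 851 genes were higher and 1015 lower of 10619 (8.01% and 9.56%), so that higher genes made up 45.6% of calls there and 59.4% on the deposited scale. Both scales called 633 genes higher and 468 lower, and no gene (0) was called in opposite directions.

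The count of higher genes rested on single libraries. It was 278 without embryo replicate 1, 318 without early pupa replicate 1, 261 without instar 1 larva replicate 2, 281 without instar 4 larva replicate 1 and 1443 without instar 4 larva replicate 2. The count of lower genes stayed between 324 and 657 as each of the 8 libraries was left out. After rescaling, the 851 higher genes were 486 and 457 without embryo replicates 1 and 2, 415 and 466 without early pupa replicates 1 and 2, 317 without instar 1 larva replicate 2 and 404 without instar 4 larva replicate 1. The 1015 lower genes were 641 without embryo replicate 1, 629 without early pupa replicate 2 and 583 without instar 1 larva replicate 2. When the 4 body-building libraries were treated as 1 group and the 4 larval libraries as another, so that differences between stages counted as spread, 10 genes were higher and 38 lower.

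**Figure D1:**
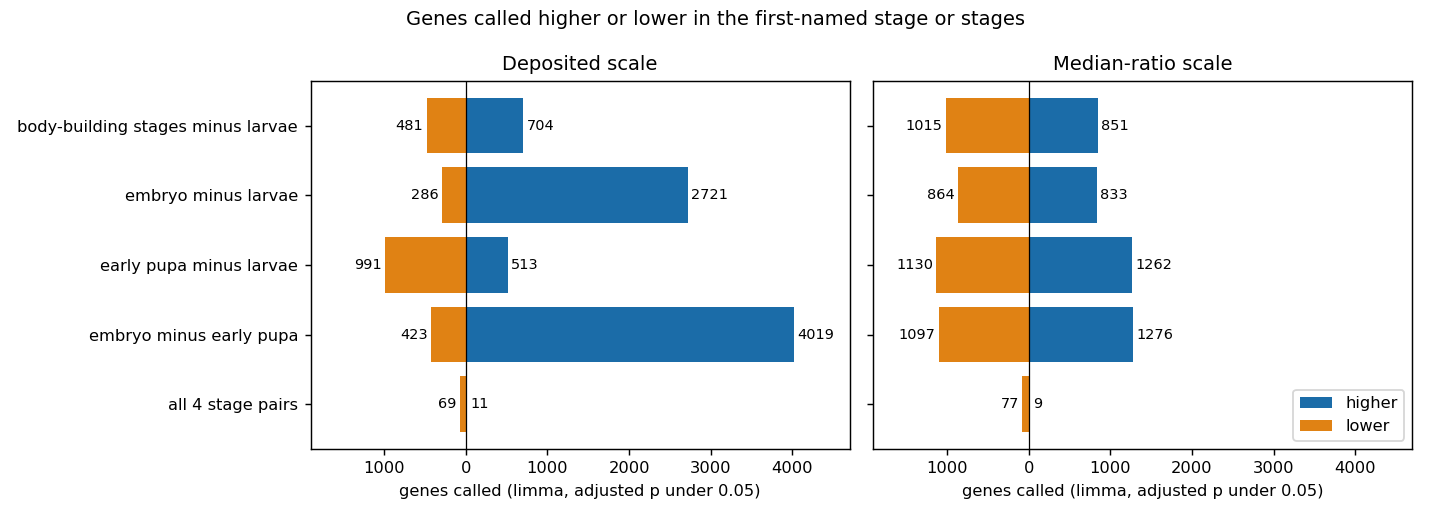
Number of genes called (horizontal axis; limma, adjusted p under 0.05) for each comparison (vertical axis), with genes higher in the first-named stage or stages to the right in blue and lower ones to the left in orange, on the deposited scale (left panel) and the median-ratio scale (right panel). The 2721 genes higher in embryo than in larvae on the deposited scale were 833 on the median-ratio scale, while the genes that passed in all 4 stage pairs stayed few on both, 11 and 9 higher against 69 and 77 lower.

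The plot of calls by comparison sets the averaged difference beside those of the single stages. Embryo and early pupa also differed from each other, in a contrast that is orthogonal to the average. Of the spread among the 4 stage means over all tested genes, 24.5% lay between body-building stages and larvae, 41.0% between embryo and early pupa and 34.5% between the larval instars. After rescaling by median ratios the shares were 38.2%, 38.7% and 23.1%. Among the 704 higher genes 203 were higher in embryo than in early pupa, 157 were lower and 344 passed in neither direction, beside 37.2% higher and 3.91% lower of all tested genes. Among the 481 lower genes 255 (53.0%) were higher in embryo than in early pupa and 8 were lower. On the median-ratio scale, where 12.0% of all genes were higher and 10.3% lower in embryo than in early pupa, 284 of the 851 higher genes (33.4%) had the higher level in early pupa and 125 (14.7%) in embryo. Of the 1015 lower genes, 251 (24.7%) were higher and 53 (5.22%) lower in embryo than in early pupa.

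The larval instars differed as well. On the deposited scale 49.7% of all tested genes were higher and 1.38% lower in instar 1 than in instar 4 larva, and on the median-ratio scale 2.68% and 5.17%. Of the 704 higher genes 293 (41.6%) were higher and 13 (1.85%) lower in instar 1 on the deposited scale, and of the 481 lower genes 119 (24.7%) were higher and 76 (15.8%) lower. The balance was another after rescaling. Among the 1015 genes lower in body-building stages on the median-ratio scale, 12 (1.18%) were higher in instar 1 than in instar 4 larva and 256 (25.2%) were lower. Among the 851 higher genes 60 (7.05%) were higher and 25 (2.94%) lower in instar 1.

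The strictest comparison asked that embryo and early pupa each differ from instar 1 larva and from instar 4 larva in the same direction. It was met by 11 higher genes (0.102%) and 69 lower genes (0.638%) of 10807, and in all 80 the 4 body-building libraries did not overlap the 4 larval libraries, from which the genes were called. Rescaled, 9 genes were higher (0.0848%) and 77 lower (0.725%), and under both scalings 4 were higher (0.0381%) and 44 lower (0.419%) of 10500. The lower genes outnumbered the higher ones on either scale. Their counts depended on few libraries: the 69 lower genes were 17 without embryo replicate 1, 31 without embryo replicate 2 and 19 without instar 1 larva replicate 2. The 11 higher genes were 2 without embryo replicate 1, 1 without instar 1 larva replicate 2, 23 without instar 1 larva replicate 1 and 18 without instar 4 larva replicate 2. Among the rescaled values the 77 lower genes were 4 without instar 1 larva replicate 2, 16 without embryo replicate 1, 26 without embryo replicate 2 and 48 without early pupa replicate 2. On the deposited scale the lower genes were 32 with a pseudocount of 0.1, and 34 with no filter on low values, where the higher genes were 7.

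Of the 69 lower genes 38 were under 1 RPKM in both early pupa libraries, 13 in both embryo libraries and 13 in all 4. In larvae 34 of them were at 10 RPKM or more in all 4 libraries, and 8 at 100 RPKM or more. Over all tested genes the median of the group means was 8.19 RPKM in embryo and 3.75 RPKM in early pupa. It was 7.23 RPKM in instar 1 larva and 2.73 RPKM in instar 4 larva. No gene (0) was at 5 RPKM or more in all 4 body-building libraries and under 1 RPKM in all 4 larval ones. The opposite pattern held for 3 genes, CFLOG006567.2, CFLOG020910.1 and CFLOG021870.1, which were chosen after their values were seen. CFLOG020910.1 had 0.909 and 0.354 RPKM in embryo and 0.166 and 0.0958 RPKM in early pupa, against 7.05 and 12.2 RPKM in instar 1 larva and 5.81 and 9.7 RPKM in instar 4 larva. It was at 0.879, 0.2, 0 and 0 RPKM in late pupae, at 0.405 and 0.389 RPKM in minors and at 1.2 RPKM in the male, so the 4 larval libraries were above all others. CFLOG021870.1 had 0.728 and 0.149 RPKM in embryo and 0.419 and 0.282 RPKM in early pupa, against 7.68 and 14.2 RPKM in instar 1 larva and 5.87 and 19.9 RPKM in instar 4 larva. Its adult values did not follow the larval ones evenly, with 10.1 and 0 RPKM in minors and 8.41 RPKM in the male. CFLOG006567.2 was at 0.749 RPKM or less in the 4 body-building libraries, was between 5.53 and 19.4 RPKM in larvae, and reached 17.7 and 7.79 RPKM in minors.

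CFLOG004601.2 was the gene higher in all 4 stage pairs with the largest smallest difference. It had 204.3 and 129.9 RPKM in embryo and 615.6 and 563.3 RPKM in early pupa, against 14 and 2.2 RPKM in instar 1 larva and 3.45 and 16.6 RPKM in instar 4 larva. The lowest body-building library was well above the highest larval one, and early pupa was above embryo. The smallest of its 4 differences was 4.21 log2 units and its largest adjusted p was 0.00069 (limma, SE 0.67). Without embryo replicate 1 the smallest difference was 3.89 and the largest adjusted p 0.068. Its level was not confined to building stages: late pupae had between 1234 and 5248 RPKM, minors 963.6 and 1077 RPKM and the male 464.8 RPKM, so larvae held its lowest values of all stages.

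CFLOG008802.1 (length 3132 nt, recovered from the values) had 186 and 301.3 RPKM in embryo and 42.3 and 52.4 RPKM in early pupa, against 16.5 and 0.604 RPKM in instar 1 larva and 0.021 and 0.055 RPKM in instar 4 larva. The groups did not overlap, and the instar 1 larva replicates differed from each other more than embryo did from early pupa. The smallest difference, early pupa minus instar 1 larva, was 3.18 log2 units (SE 0.77, adjusted p 0.0044 in limma). Without instar 1 larva replicate 1 it was 4.9, and without replicate 2 it was 1.46 with an adjusted p of 0.15. Late pupae had between 11 and 49.3 RPKM, while minors had 0.14 and 0.0299 RPKM and the male 0.045 RPKM. It was thus highest in embryo, and at 0.14 RPKM or less in instar 4 larva, minors and the male. The lowest late pupa library, at 11 RPKM, was below instar 1 larva replicate 1, at 16.5 RPKM.

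The other two genes higher under both scalings were CFLOG001335.1 and CFLOG007578.2, named here after their values were seen. CFLOG007578.2 had 193.5 and 95.8 RPKM in embryo and 54.4 and 30.2 RPKM in early pupa, against 18.8 and 9.36 RPKM in instar 1 larva and 0.923 and 2.29 RPKM in instar 4 larva. It had at most 3.13 RPKM in late pupae and 0.0975 RPKM in minors. CFLOG001335.1 had 12.5 and 13.5 RPKM in embryo and 5.41 and 4.92 RPKM in early pupa, against at most 2.49 RPKM in larvae, and was highest in late pupae, at 52.5 to 76.4 RPKM.

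**Figure D2:**
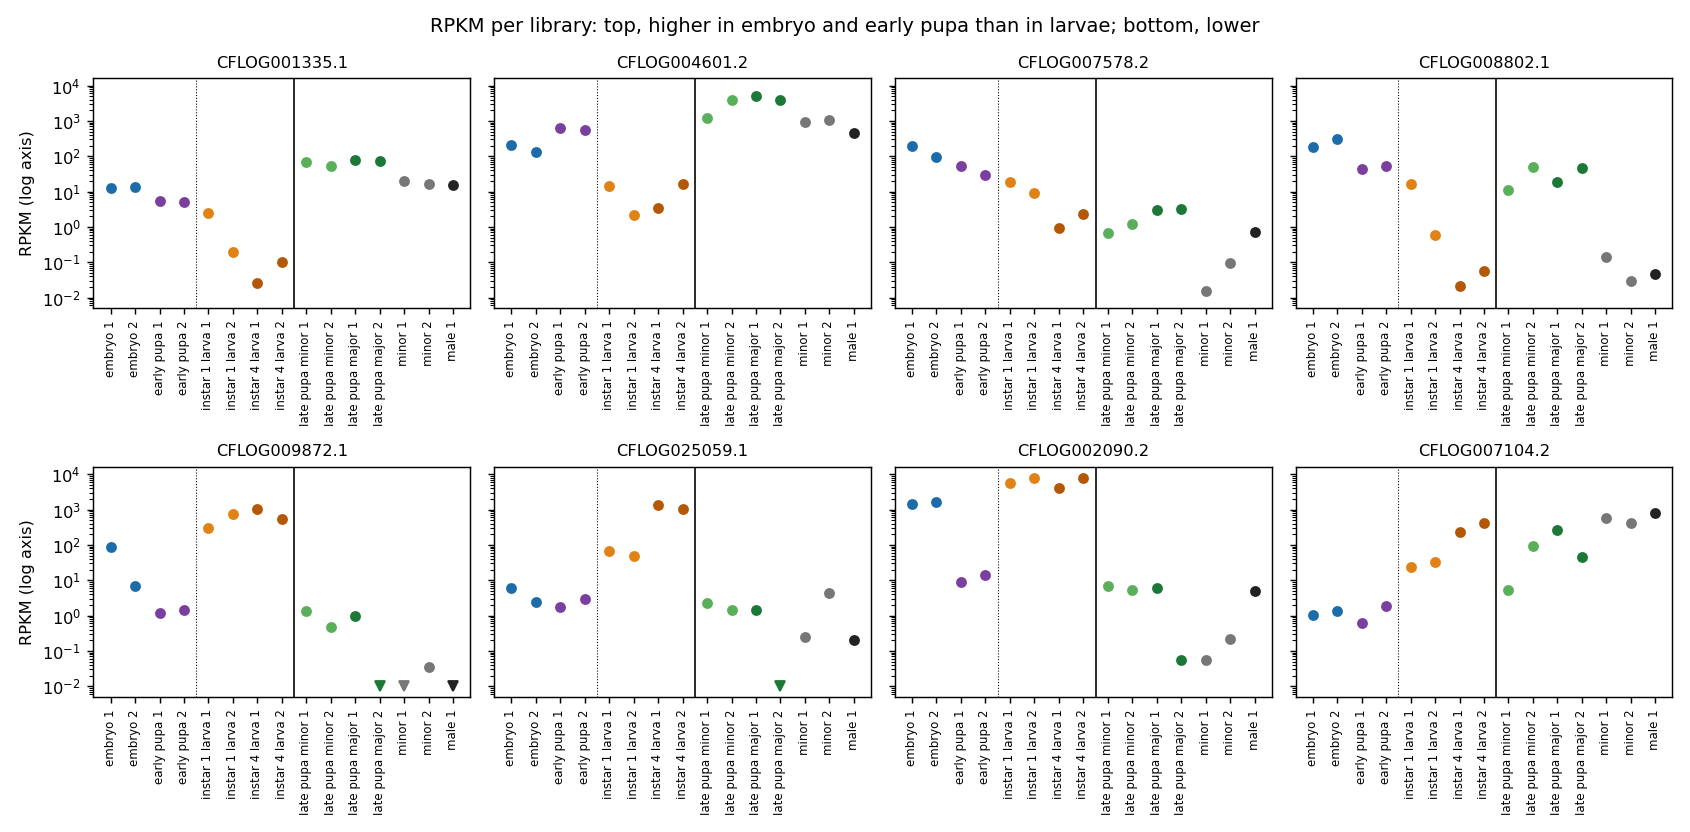
RPKM on a log axis (vertical) in each of the 15 libraries (horizontal) for 4 genes higher in embryo and early pupa than in larvae (top) and 4 lower (bottom); a dotted line parts body-building from larval libraries, a solid line parts these from the remaining libraries, and triangles at the bottom mark values listed at 0. The genes on top had all 4 body-building libraries above the 4 larval ones and those at the bottom had them below, and CFLOG002090.2 had 1429 and 1686 RPKM in embryo but 9.09 and 14.3 RPKM in early pupa.

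Among genes lower in all 4 stage pairs, CFLOG009872.1 (1377 nt) had 85.7 and 6.93 RPKM in embryo and 1.22 and 1.41 RPKM in early pupa, against 300.0 and 745.7 RPKM in instar 1 larva and 1065 and 555.5 RPKM in instar 4 larva. No body-building library overlapped a larval one, but the embryo replicates lay far apart. The smallest difference was -4.18 log2 units (SE 0.73, largest adjusted p 0.0023 in limma). It was -2.45 without embryo replicate 2 and -3.52 without instar 1 larva replicate 2, both with an adjusted p of 0.058, and the adjusted p was 0.053 with a pseudocount of 0.1 and 0.068 with no filter. The gene was also low later, at 1.33 RPKM or less in every late pupa library and at 0, 0.034 and 0 RPKM in minor replicate 1, minor replicate 2 and the male. The plot of RPKM per library shows it as a larval peak, with lower but uneven values in embryo and low values from early pupa on.

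CFLOG025059.1 (234 nt) had 6.13 and 2.5 RPKM in embryo and 1.76 and 2.96 RPKM in early pupa, against 69.2 and 49.3 RPKM in instar 1 larva and 1380 and 1016 RPKM in instar 4 larva. Every larval library was above every body-building one, and instar 4 was far above instar 1. The smallest difference was -3.57 log2 units (SE 0.58, largest adjusted p 0.0015 in limma), and -3.86 with an adjusted p of 0.1 under a pseudocount of 0.1. CFLOG025406.1, at -6.03 log2 units in the averaged comparison (SE 0.41, adjusted p 2.8e-09, against -6.28 for CFLOG009872.1), has the same value in each of the 15 libraries. The 2 IDs cannot be told apart, and they count as 2 among the 69. In all, 18 tested IDs shared every value with another ID, in 9 profiles.

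**Figure D3:**
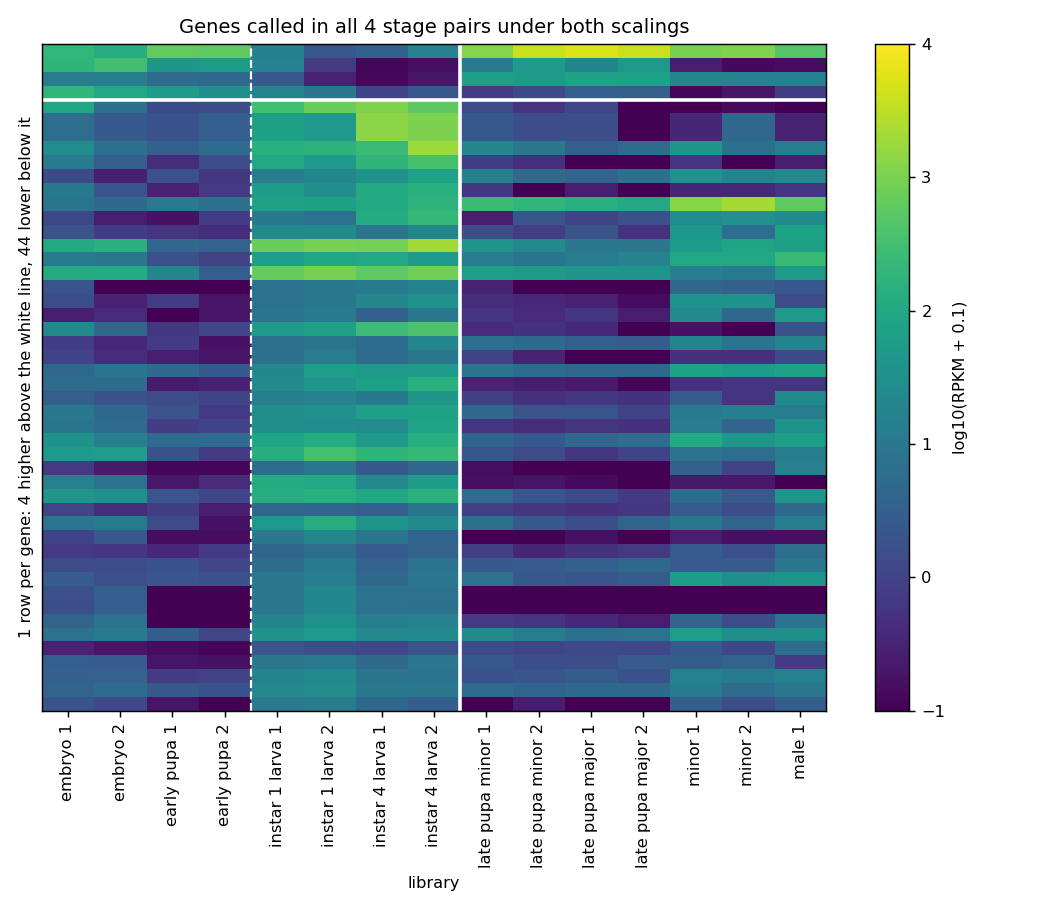
Levels as log10(RPKM + 0.1) (colour) of the genes that passed in all 4 stage pairs under both scalings, 1 line per gene and 1 column per library; the 4 higher genes stand above the white horizontal line and the 44 lower ones below, and vertical lines part body-building, larval and remaining libraries. Most of the 44 lower genes are dark in early pupa and late pupa and brighter in larvae, and part of them are bright again in minors and the male.

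In the heat map the 44 lower genes had a median of 4.31 RPKM in embryo and 0.791 RPKM in early pupa, against 25.4 RPKM in instar 1 larva and 29.3 RPKM in instar 4 larva. Of these genes 23 (52.3%) were higher in embryo than in early pupa and none (0) was lower, at an adjusted p under 0.05 in limma, beside 37.2% and 3.91% of all tested genes. After rescaling 15 (34.1%) were higher and 0 lower, beside 12.0% and 10.3% of all genes. On the deposited scale instar 1 larva held the highest mean level of 15 of them, instar 4 larva of 16, minor of 4 and the male of 9, beside 19.2%, 1.7%, 6.31% and 23.2% of all tested genes. As the genes were chosen for high larval levels, the larval peaks follow in part from that choice. In minors 17 of the 44 were at 10 RPKM or more and 10 were under 1 RPKM. In late pupae 38 of the 44 had group means under 10 RPKM. Such levels are usual: over all tested genes the median of the group means was 2.77 RPKM in late pupa minor and 3.03 RPKM in late pupa major. In minor it was 2.92 RPKM.

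The averaged comparison was led by genes that were very abundant in early pupa alone. CFLOG007438.2 (843 nt) had 158.4 and 149.8 RPKM in embryo and 41816 and 26854 RPKM in early pupa, against 57.9 and 39.1 RPKM in instar 1 larva and 6.15 and 0.868 RPKM in instar 4 larva. All 4 body-building libraries were above the larval ones, but by unequal amounts. The averaged difference was 7.42 log2 units (SE 0.66, adjusted p 8.5e-08 in limma), while embryo minus larvae was 3.54 (adjusted p 0.0038, and 0.1 on the median-ratio scale). In late pupae it was at 59.2 RPKM or less, and in adults at most 0.334 RPKM.

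CFLOG026947.1 (165 nt) had 38.7 and 55.4 RPKM in embryo and 24172 and 16865 RPKM in early pupa, against 38.4 and 13.3 RPKM in instar 1 larva and 6.16 and 0.783 RPKM in instar 4 larva. Embryo replicate 1 was barely above instar 1 larva replicate 1. The averaged difference was 6.73 log2 units (SE 0.7, adjusted p 7.7e-07 in limma), and embryo minus larvae was 2.36 with an adjusted p of 0.045, or 0.35 on the median-ratio scale. The late pupa minor replicates stood far apart, at 1412 and 64.8 RPKM.

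On the lower side, CFLOG002090.2 (1077 nt) had 1429 and 1686 RPKM in embryo and 9.09 and 14.3 RPKM in early pupa, against 5815 and 8032 RPKM in instar 1 larva and 4193 and 8092 RPKM in instar 4 larva. It was thus abundant in embryo, more so in larvae and low in early pupa, with no overlap between groups. The averaged difference was -5.5 log2 units (SE 0.44, adjusted p 1.7e-08 in limma), and embryo minus early pupa was 6.96 (SE 0.62, adjusted p 7.8e-08). Late pupae had at most 6.7 RPKM and adults at most 4.84 RPKM.

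**Figure D4:**
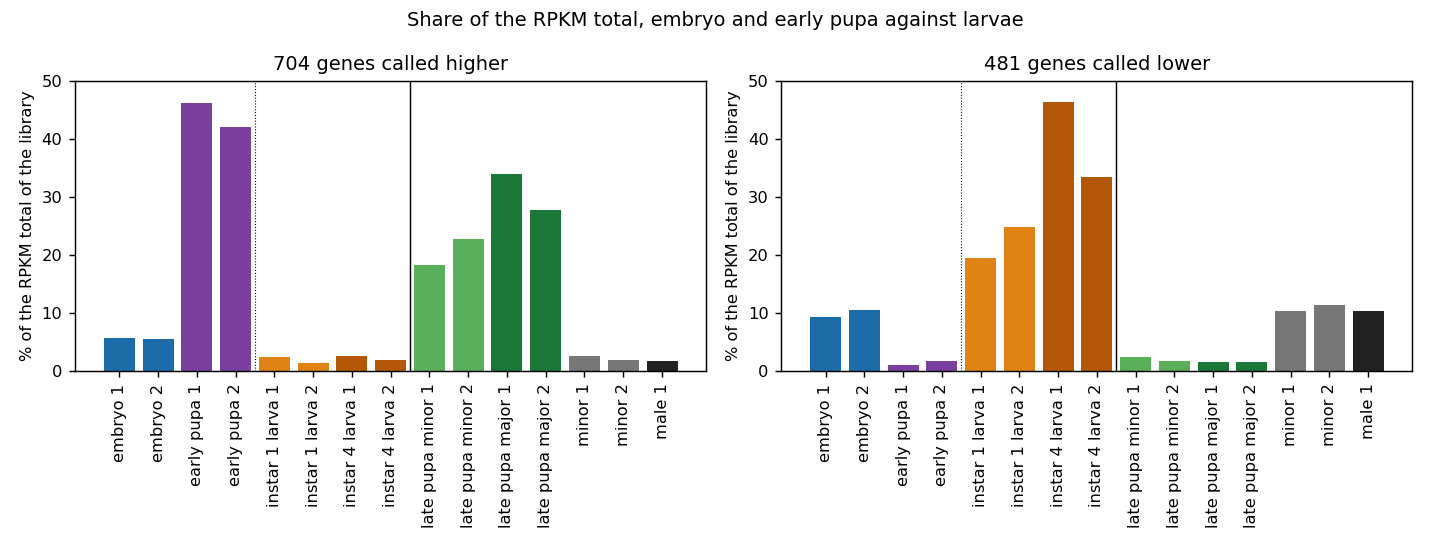
Percent of each library's RPKM total (vertical axis) held by the 704 genes higher (left) and the 481 genes lower (right) in embryo and early pupa than in larvae, for the 15 libraries (horizontal axis); a dotted line parts body-building from larval libraries and a solid line parts these from the rest. The higher genes held 46.2% and 42.1% in early pupa and 5.59% and 5.46% in embryo, and the lower genes held between 19.4% and 46.3% in larvae.

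The shares of the RPKM total were unequal between the 2 body-building stages. The 704 higher genes held 5.59% and 5.46% in embryo, and 46.2% and 42.1% in early pupa, against 2.38% and 1.42% in instar 1 larva and 2.65% and 1.94% in instar 4 larva. The 5 most abundant of them in each library accounted for 38.2% and 33.3% in early pupa, against at most 1.18% in embryo. The 481 lower genes held 9.35% and 10.5% in embryo and 1.02% and 1.68% in early pupa, against 19.4% and 24.8% in instar 1 larva and 46.3% and 33.4% in instar 4 larva. Since the genes were chosen on these libraries, the shares describe them and support nothing. In the libraries the comparison did not use, the higher genes held 18.2% to 34.0% in late pupae. They held 2.48% and 1.85% in minors and 1.74% in the male. Much of the late pupa share lay in few genes: the 5 most abundant of them in each library accounted for 11.6% to 26.3%. The lower genes held 1.53% to 2.41% in late pupae, against 10.4% and 11.4% in minors and 10.3% in the male.

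Embryo alone was set against the larvae next. On the deposited scale 2721 genes were higher (25.2%) and 286 lower (2.65%) in embryo, with a median difference of 0.59 log2 units over all genes, and on the median-ratio scale 833 were higher (7.84%) and 864 lower (8.14%). The balance of directions thus depended on the scale. Single libraries moved these counts as well: the higher genes were 301 without embryo replicate 1, 1414 without instar 1 larva replicate 2, 1543 without instar 4 larva replicate 1 and 4409 without instar 4 larva replicate 2. The lower genes were 111 without embryo replicate 1 and 154 without embryo replicate 2.

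The leading genes of embryo were still present in instar 1 larva. CFLOG007212.2 (1440 nt) had 823.2 and 390 RPKM in embryo, against 126.3 and 15 RPKM in instar 1 larva and 0.0456 and 0.239 RPKM in instar 4 larva, and early pupa was at 0.501 and 1.08 RPKM. XLOC_052885 (1223 nt) had 1468 and 888.1 RPKM in embryo, against 642.5 and 153.9 RPKM in instar 1 larva and 0.751 and 0.774 RPKM in instar 4 larva, and early pupa was at 0.955 and 0.311 RPKM. Both had lower values in instar 1 larva than in embryo and were under 1 RPKM in instar 4 larva, and both were at 0.779 RPKM or less in late pupae and adults. In both, instar 1 larva replicate 1 was the one nearer to embryo. Embryo minus larvae was 6.31 log2 units for CFLOG007212.2 (SE 0.54, adjusted p 3.4e-07 in limma) and 5.6 for XLOC_052885 (SE 0.44, adjusted p 1.7e-07).

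Among genes lower in embryo, CFLOG007104.2 (1872 nt) had 1.05 and 1.33 RPKM in embryo, against 23.7 and 32.9 RPKM in instar 1 larva and 235.2 and 418.6 RPKM in instar 4 larva. Early pupa was also low, at 0.606 and 1.85 RPKM. The gene was high again in minors, at 579.7 and 407.4 RPKM, and in the male, at 818.5 RPKM. Embryo minus larvae was -5.45 log2 units (SE 0.74, adjusted p 3.1e-05 in limma). CFLOG023782.1 (1035 nt) had 0.635 and 5.19 RPKM in embryo, against 10.7 and 44.4 RPKM in instar 1 larva and 133.4 and 723.3 RPKM in instar 4 larva. Its replicates differed widely in all 4 stages, early pupa being at 20.8 and 1 RPKM. Embryo minus larvae was -4.74 log2 units (SE 0.8, adjusted p 0.00028 in limma), and -3.78 with an adjusted p of 0.095 without embryo replicate 1.

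Early pupa alone gave 513 genes higher (4.75%) and 991 lower (9.17%) than in larvae, with a median of -0.22 log2 units over all genes, and 1262 higher (11.9%) and 1130 lower (10.6%) on the median-ratio scale. The higher genes were 187 without early pupa replicate 1 and 313 without replicate 2, and the lower genes 511 and 414, or 1607 without instar 4 larva replicate 1. CFLOG010137.2 (777 nt) was the most abundant gene named here, with 49894 and 34293 RPKM in early pupa, against 47.6 and 21.3 RPKM in instar 1 larva and 8.45 and 1.44 RPKM in instar 4 larva. Embryo overlapped instar 1 larva, with 36.4 and 52.7 RPKM, and late pupae had at most 76.6 RPKM. Early pupa minus larvae was 11.68 log2 units (SE 0.69, adjusted p 1.3e-10 in limma). Together CFLOG010137.2, CFLOG007438.2 and CFLOG026947.1 held 30.5% and 28.3% of the RPKM total in early pupa, and at most 0.504% in each of the other libraries.

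CFLOG027766.1 (1689 nt) had 1848 and 724.2 RPKM in early pupa, against 3.5 and 2.31 RPKM in instar 1 larva and 1.2 and 1.17 RPKM in instar 4 larva. The groups lay far apart, and late pupae were high as well, at 240.9 to 539.1 RPKM. Early pupa minus larvae was 8.64 log2 units (SE 0.41, adjusted p 8.9e-12 in limma), and in embryo, at 9.94 and 5.91 RPKM, it was 1.58 units above larvae (adjusted p 0.0086, and 0.079 on the median-ratio scale).

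The genes lowest in early pupa relative to larvae included abundant larval transcripts. CFLOG000597.1 (684 nt) had 61.7 and 70.4 RPKM in early pupa, against 27116 and 33251 RPKM in instar 1 larva and 28477 and 35739 RPKM in instar 4 larva, where it took 6.87% to 13.9% of the RPKM total of a library. Embryo lay between, at 7384 and 8093 RPKM, and the 2 minors at 0.385 and 0.411 RPKM. Early pupa minus larvae was -8.85 log2 units (SE 0.74, adjusted p 1.7e-08 in limma), and embryo minus larvae -2.0 (adjusted p 0.048, and 0.071 on the median-ratio scale). CFLOG000609.2 (1791 nt) had 3.24 and 2.51 RPKM in early pupa, against 5294 and 11071 RPKM in instar 1 larva and 1867 and 353.4 RPKM in instar 4 larva. Embryo, at 1172 and 1275 RPKM, lay within the larval range. Early pupa minus larvae was -9.34 log2 units (SE 0.53, adjusted p 6.2e-11 in limma), and embryo minus larvae -1.03 (adjusted p 0.14).

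Set directly against each other, embryo had 4019 genes higher (37.2%) and 423 lower (3.91%) than early pupa, with a median difference of 0.82 log2 units, and 1276 higher and 1097 lower on the median-ratio scale. The 4019 genes were 1146 without embryo replicate 1, 2295 without early pupa replicate 1 and 1742 without early pupa replicate 2. The 423 were 219 without embryo replicate 1, 274 without embryo replicate 2 and 214 without early pupa replicate 1.

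XLOC_040072 (1853 nt) had 591.9 and 362 RPKM in embryo, against 0.26 and 0.0747 RPKM in early pupa, a difference of 8.64 log2 units (SE 0.48, adjusted p 2.4e-10 in limma). CFLOG003764.1 (1233 nt) had 553.6 and 266.5 RPKM in embryo, against 0.697 and 1.15 RPKM in early pupa, a difference of 7.66 log2 units (SE 0.65, adjusted p 4.5e-08). In instar 1 larva both lay between these levels, at 267.4 and 67.3 RPKM and at 160.5 and 32.9 RPKM, and in instar 4 larva they were at 5.03 RPKM or less. Neither passed in the averaged comparison, where the differences were 0.82 log2 units (adjusted p 0.13) for XLOC_040072 and 0.76 (adjusted p 0.32) for CFLOG003764.1. CFLOG027741.1 (1242 nt) had 0.144 and 0.353 RPKM in embryo, against 942.3 and 767.7 RPKM in early pupa (-9.42 log2 units, SE 0.58, adjusted p 4.3e-10 in limma). CFLOG021899.1 (579 nt) had 36.3 and 12.6 RPKM in embryo, against 6596 and 6566 RPKM in early pupa (-8.19 log2 units, SE 0.73, adjusted p 7.3e-08). Both were already present in instar 4 larva, at 37.7 and 218 RPKM and at 494.8 and 1558 RPKM, and both were at 14.6 RPKM or less in late pupae and at 0 RPKM in minors.

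Embryo minus instar 1 larva and early pupa minus instar 4 larva are the steps at either end of larval life, and they share no library. The first gave 165 genes higher (1.53%) and 154 lower (1.43%) in embryo, the second 749 higher (6.93%) and 468 lower (4.33%) in early pupa. Of these, 94 genes were lower in both, which is 61.0% of the 154 and 20.1% of the 468. Another 22 were higher in both, which is 13.3% of the 165 and 2.94% of the 749. Opposite calls were 4 genes higher in embryo and lower in early pupa, 2.42% of the 165 beside 4.33% of all genes. The other way there were 7, 4.55% of the 154 beside 6.93% of all genes. On the median-ratio scale, where 0.885% and 1.24% of genes were higher and lower in the first step and 8.85% and 10.3% in the second, 101 of 132 lower genes (76.5%) and 17 of 94 higher genes (18.1%) also passed in the second step. The 116 genes called in both, in the same direction, were 27 without embryo replicate 1, 62 without embryo replicate 2 and 27 without instar 1 larva replicate 2, and 59 with a pseudocount of 0.1 and 52 with no filter.

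**Figure D5:**
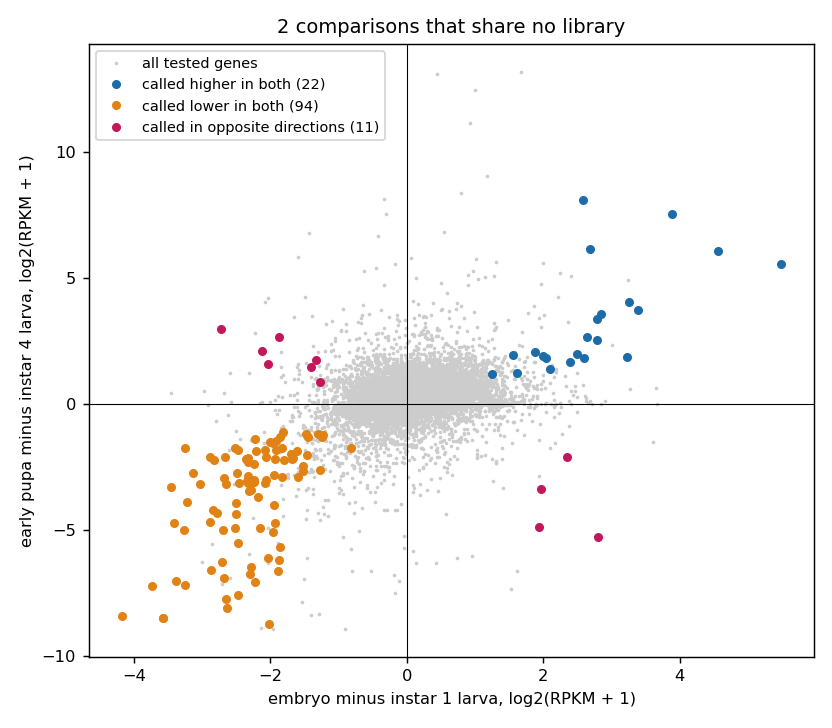
Difference between embryo and instar 1 larva (horizontal axis) and between early pupa and instar 4 larva (vertical axis), both on log2(RPKM + 1), with 1 point per tested gene; blue points were called higher in both (22), orange points lower in both (94) and magenta points in opposite directions (11). The called points lie mostly in the lower left corner, and the differences reach further on the early pupa axis than on the embryo axis.

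The scatter of the 2 steps had a correlation of 0.36 over the 10807 genes, and 0.39 on the median-ratio scale. In the other pairing with no shared library, embryo minus instar 4 larva with early pupa minus instar 1 larva, it was -0.13 and -0.04. There, 91 genes were higher in both (1.5% of 6063, beside 3.78% of all genes). Another 145 were lower in both (47.4% of 306, beside 32.7%). Opposite calls were 2314 higher in embryo and lower in early pupa (38.2% of 6063, beside 32.7% of all genes). The other way there were 50 (16.3% of 306, beside 3.78%). On the median-ratio scale 68 were higher in both (5.74% of 1185, beside 10.5% of all genes) and 256 lower (19.7% of 1297, beside 8.72%). Opposite calls were then 253 (21.4% of 1185, beside 8.72%) and 265 (20.4% of 1297, beside 10.5%). These correlations are across genes that share the depth and scale of their libraries, and carry no test.

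The genes were last read in libraries outside the contrast that chose them, which had entered only its filter and its estimate of spread. Late pupae were set against minors, which asks whether a stage still building the adult body stands to a finished one as embryo and early pupa did to larvae. Over all tested genes 851 were higher (7.87%) and 1622 lower (15%) in late pupae. Of the 704 genes higher in body-building stages, 209 were higher in late pupae (29.7%) and 19 lower (2.7%). Of the 481 lower genes, 261 were lower in late pupae (54.3%) and 19 higher (3.95%). All 11 genes higher in all 4 stage pairs were higher in late pupae than in minors, and of the 69 lower ones 34 were lower (49.3%) and 3 higher. On the median-ratio scale, with 19.7% of all genes higher and 22.2% lower in late pupae, 381 of 851 genes (44.8%) and 582 of 1015 (57.3%) kept their direction. There, 6 of the 9 higher and 49 of the 77 lower genes of the 4 stage pairs did so. With no filter on low values the sets were smaller, 361 genes higher and 343 lower in body-building stages than in larvae. The share of all genes called in late pupae is not given for that setting. Without minor replicate 2 the 209 genes were 120 (17.0%, with 3.5% of all genes higher), and with no filter they were 98, while without minor replicate 1 the 261 lower genes were 177 (36.8%, with 8.11% of all genes lower) and with no filter 161.

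The group of highest mean RPKM was also read for each gene. The lower genes were chosen for larval levels above embryo and early pupa, and the higher genes for the reverse. Shares of peaks in these 4 stages therefore follow in part from that choice and support nothing. Late pupa major held the highest mean of 5 of the 11 genes higher in all 4 pairs, embryo of 3 and early pupa of 3, beside 3.6%, 38.8% and 4.89% of all tested genes. Of the 69 lower genes none (0) peaked in a late pupa group, 23 (33.3%) peaked in instar 1 larva, 24 (34.8%) in instar 4 larva, 7 (10.1%) in minor and 15 (21.7%) in the male, which is a single library. Over all tested genes the shares were 19.2%, 1.7%, 6.31% and 23.2%. After rescaling these numbers were 2 (2.9%), 47 (68.1%), 13 (18.8%) and 7 (10.1%), beside 6.07%, 9.79%, 21.7% and 13.8% of all genes, so the instar in which a gene peaked depended on the scale. The shares for the male, and for minor after rescaling, were no higher than among all genes. Late pupa major then held the highest mean of 7 of the 11 higher genes, with 2 each in embryo and early pupa, beside 8.81%, 17.3% and 11.5% of all genes.

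The called genes were spread over all kinds of ID. Among 4022 tested CFLOG IDs whose suffix is 1, 6.64% were higher and 4.4% lower in body-building stages than in larvae, and among 6458 whose suffix is 2, 6.52% and 4.35%. Of the 327 XLOC IDs 16 were higher (4.89%) and 23 lower (7.03%). Lengths recovered from the values had a median of 1204 nt for higher and 1098 nt for lower genes, against 1155 nt over all tested genes with a length. As 91.9% of CFLOG lengths were multiples of 3, these are mostly coding lengths.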

How the data were processed

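Per the labels' protocols, RNA of whole bodies was taken up in TRIzol, freed of DNA and turned into dUTP libraries that keep the strand, from poly(A) RNA. The submitters' processing notes name STAR 2.5.0b and DESeq2 without saying what each was used for. As to genome build, annotation and counting, these were not given in the sources used here. Values deposited by the authors are RPKM for 18979 genes in 15 libraries (8 groups), which the labels assign to stages. The deposited column names of all 15 begin with the same prefix, and no batch of collection or extraction is given in the labels. From the RPKM, log2(RPKM + 1) was tested with limma 3.58.1 in R 4.3.3, with 1 term per group, all 15 libraries and eBayes with a trend, two-sided with Benjamini-Hochberg adjustment and a threshold of 0.05. A gene was tested if 2 or more libraries reached 1 RPKM (10807 genes). This step was also tested on simulated data with known changes. Depth and gene lengths were recovered from the RPKM steps (12307 genes with a length) and used for description only, so no count test was run. Floors cover counting error only. Replicates were compared by chi-square on recovered reads to find repeated deposits, and the median per gene was 2.83 to 8.26, so all were counted separately.

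The stages compared, the gene lists and the tests were chosen with earlier results of these data known. Because the IDs carry no names, genes are named by a rule: in each comparison at most 2 higher and 2 lower IDs with the largest differences, called on both the deposited and the median-ratio scale, without overlap between body-building and larval libraries in the first 2 comparisons, and passing over an ID already named. Other scalings, a pseudocount of 0.1, no filter, fits to the 8 libraries alone, a term for the replicate number, 2 pooled groups and leaving out each library were tried as alternatives. Sequences, gene names and marker checks are not reported here, since no ID could be matched.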

Additional observations from a re-analysis of the deposited data

Results flagged for a closer look

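For 12 genes named in the comparisons with larvae, embryo and early pupa differed from the same larvae by different amounts, as tested by embryo minus early pupa in limma. On log2(RPKM + 1), early pupa was above embryo for CFLOG004601.2 (-1.85, adjusted p 0.033), CFLOG007438.2 (-7.76, adjusted p 3.4e-06), CFLOG026947.1 (-8.74, adjusted p 1.7e-06), CFLOG010137.2 (-9.85, adjusted p 2.2e-08) and CFLOG027766.1 (-7.06, adjusted p 1.7e-09). Embryo was above early pupa for CFLOG008802.1 (2.31, adjusted p 0.023), CFLOG009872.1 (3.5, adjusted p 0.0011), CFLOG002090.2 (6.96, adjusted p 7.8e-08), CFLOG000597.1 (6.85, adjusted p 4.6e-06), CFLOG000609.2 (8.31, adjusted p 7.5e-09), CFLOG007212.2 (8.33, adjusted p 8.8e-09) and XLOC_052885 (9.48, adjusted p 2.3e-10). After rescaling by median ratios the difference of CFLOG008802.1 was 1.27 with an adjusted p of 0.33, and the other 11 passed the threshold in the same direction. In each of the 12 genes both replicates of 1 stage were above both replicates of the other.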

How the results depend on the processing

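Each result was recomputed under other scalings, filters, pseudocounts and sets of libraries. No named gene changed direction. On the median-ratio scale the genes lower in body-building stages than in larvae were 1015, those called between embryo and larvae 1697, between early pupa and larvae 2392 and between embryo and early pupa 2373, and the genes that kept their direction in late pupae against minors were 381 higher and 582 lower. A pseudocount of 0.1 left 32 genes lower in all 4 stage pairs and 59 genes called in both of the steps that share no library. With no filter (16030 genes tested) the counts were 361 higher and 343 lower on average, 7 higher and 34 lower in all 4 pairs. There were then 52 in both steps, and 98 higher and 161 lower in late pupae. With 2 pooled groups 10 genes were higher and 38 lower (857 genes at an unadjusted p under 0.05). As each of the 8 libraries was left out, the counts ran from 261 to 1443 (higher on average), 324 to 657 (lower), 1 to 23 (higher in all 4 pairs), 17 to 72 (lower), 412 to 4662 (embryo and larvae), 698 to 1984 (early pupa and larvae), 1365 to 5392 (embryo and early pupa) and 27 to 138 (both steps). As each late pupa or minor library was left out, 120 to 212 genes were higher and 177 to 267 lower in late pupae. On the median-ratio scale without 1 library, a setting chosen after seeing the data like the one before it, the counts ran from 317 to 948 (higher on average), 583 to 924 (lower), 1 to 21 (higher in all 4 pairs) and 4 to 106 (lower). Where a group was left with 1 library, it was assumed to vary like the others. The cause of these moves was not tested. Named genes had to be called on the median-ratio scale, so their values under that alternative passed by the rule. They were also chosen for large differences in these same libraries. CFLOG025059.1 and CFLOG025406.1 share every value, so their profile is counted under both IDs. For the 20 named genes, 252 of 260 values under alternatives stayed past the threshold, 8 did not and 0 reversed, and 15 genes passed under every alternative.

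The labels do not say whether replicate numbers pair the samples. Across genes, deviations of same-numbered libraries correlated between -0.36 and 0.23, which cannot decide it with 2 libraries per stage. With the number as a replicate block, 749 genes were higher and 477 lower on average, 13 higher and 72 lower in all 4 pairs, and the calls were 2804 (embryo and larvae), 1419 (early pupa and larvae), 4180 (embryo and early pupa), 122 (both steps), 213 higher and 251 lower in late pupae, all within 1.5 times the reported counts.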
